A study of Mus musculus with 19 samples.

Results

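Macrophages take up debris, microbes and proteins, present antigen and make complement, and they live in most connective tissues, including the one under the epithelium of the ocular surface. Their survival depends on CSF1R, the receptor for the growth factors CSF1 and IL-34, and they carry scavenger and pattern receptors on their surface and a large lysosomal system inside. Most C1q, the protein that starts the classical complement pathway, is made by tissue macrophages and related cells. The 10 genes followed here were taken by symbol, as the rows of the cornea and conjunctiva tables for *Cd68*, *Csf1r*, *Adgre1*, *Mrc1*, *Cd163*, *Lyz2*, *C1qa*, *C1qb*, *C1qc* and *Cd14*. All 10 were present among the 24552 features used in each table, and the rule picks rows by symbol, not by measured values. The genes were, however, chosen with earlier results of these data known. The study had named fibroblasts and macrophages as the top cell types modulated by restriction in the conjunctiva. Counts of these genes are therefore no independent support for a macrophage change.

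The study asked what calorie restriction does to the ocular surface of adult mice. RNA sequencing libraries came from female C57BL/6 mice (C57BL/6 J in the study's methods) that were fed ad libitum (AL) or kept on a restricted ration (CR) for several months, all with the age tag of 6 months in their titles. The study's methods place the start of restriction near that age and the sampling months later. If those methods apply to these libraries, the mice were older than the tag of 6 months when sampled. The titles also carry a further tag ending in W, shared by all libraries, which the study's methods do not explain. What it stands for was not settled, so no sampling age was taken from the titles. There were 5 AL and 5 CR libraries of the cornea and 4 AL and 5 CR libraries of the conjunctiva. By the study's methods the cornea samples were epithelium removed by scraping, the conjunctiva was cut out whole, and several tissues were taken from each mouse. In a cohort of the study, the CR chow held added vitamins and micronutrients, unlike the AL chow. Food for its CR mice came daily, ahead of the dark phase. Whether these libraries came from that cohort was not stated, so AL and CR may differ in more than calories. A library is called by its diet and the number of its title. Marker genes of the corneal epithelium (*Krt12*, *Krt5*, *Krt14*, *Pax6* and *Aldh3a1*) summed to between 461653 and 664224 normalized counts in the cornea libraries, and markers of the conjunctival epithelium (*Krt13*, *Krt4*, *Krt19* and *Muc5ac*) to between 26645 and 74179 in the conjunctiva libraries. Each list was also present in the other tissue, with corneal markers at 88590 to 140215 in the conjunctiva and conjunctival markers at 25595 to 63369 in the cornea. These sums therefore did not set the conjunctiva apart. Of the 4 conjunctival markers, *Muc5ac* alone missed the filter on low values in the cornea, with a mean of 7.93 normalized counts, while all 4 passed it in the conjunctiva. A normalized count is the read count of a gene divided by the size factor of its library. Each tissue was scaled in its own table, so levels were tested within a tissue only. Where levels of both tissues stand side by side, they are a description.

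The cornea libraries held 10354125 to 14681223 counted reads and the conjunctiva libraries 10726717 to 14433441. Where no read of a gene was counted, as many as 3 remain possible, or 2.27 to 3.37 normalized counts depending on the library, a floor that covers counting error only. The share of genes with 0 reads was 40.5% ± 2.70 (SD, n = 5) in AL and 44.4% ± 3.06 (n = 5) in CR cornea (exact two-sided permutation p = 0.0714), and 35.3% ± 1.90 (n = 4) against 37.1% ± 2.29 (n = 5) in the conjunctiva (exact p = 0.238). Cornea AL 1 stood apart by its lacrimal gland transcripts: the 7 lacrimal markers summed to 25634 normalized counts in the highest AL cornea library and to 29.2 in the lowest. They summed to 14.2 or less in every CR cornea library. In the conjunctiva the same markers summed to 53.6 to 70.7 in AL and to 25.5 or less in CR. Their part in the results was not tested.

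On the mouse genome (GRCm38.p6, RefSeq positions) the 3 C1q genes form a cluster of 18719 bases on the minus strand, chr4:136880126-136898844, in the order *C1qb*, *C1qc*, *C1qa*. *Cd68* lies at chr11:69664213-69666170, *Lyz2* at chr10:117277541-117282272, *Adgre1* at chr17:57358581-57483529, *Mrc1* at chr2:14229414-14332023 and *Cd163* at chr6:124304636-124330529. *Csf1r* spans chr18:61105572-61131139 and *Cd14* chr18:36725064-36726815. The annotation places *Mir511* within *Mrc1* and *Mir6983* within *Csf1r*, so reads of those stretches cannot be given to one gene with certainty. It also has *Gm18069* and *Gm20243* overlapping *Adgre1*, *Gm52877* overlapping *Cd163* and *Gm52352* overlapping *Csf1r*, none of which is a feature of the cornea table. *Lyz2* shared 5.96% of its 75-base transcript windows with its neighbour *Lyz1*, another lysozyme gene, and its count is uncertain to that extent. The other 9 genes shared no such window with any other gene.

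The conjunctiva held these genes at levels that could be measured: a library had between 32 and 1351 reads for each gene, and all 10 passed the filter of a mean of at least 10 normalized counts. The fitted level of all 10 was lower in CR than in AL, against 52.0% of all genes tested. None passed the threshold for a called change, an adjusted p under 0.05 with a fold over 1.5, which 0.359% of the 13929 genes tested did, and limma voom on the recovered reads called 0 of the 10 as well. At an unadjusted p under 0.05, 6 of the 10 were lower (*C1qa*, *Mrc1*, *Adgre1*, *Lyz2*, *Cd163* and *C1qb*), against 4.87% of all genes tested. The median log2 change of the 10 was −0.56, and that of all genes tested was −0.02. In bulk tissue, fewer macrophages and less of these RNAs per macrophage cannot be told apart.

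*C1qa*, which encodes the A chain of C1q, had the smallest p of the 10 genes. Its normalized counts were 1086 in AL 1, 893 in AL 3, 1154 in AL 4 and 968 in AL 5, and 634 in CR 1, 544 in CR 2, 763 in CR 3, 800.2 in CR 4 and 584 in CR 5. All 5 CR libraries lay below all 4 AL libraries, which was the case for 1 of the 10 genes and for 1.95% of all genes tested. The mean was 1025 ± 117 (SD, n = 4) in AL and 665 ± 112 (n = 5) in CR, which is −0.63 ± 0.15 on the log2 scale (change ± SE; limma, adjusted p = 0.103). *C1qb*, the B chain, measured 389.9, 295.1, 415 and 404 in the AL libraries and 295.1, 223, 358, 247 and 227 in the CR libraries, in order of their numbers. Its AL 3 library was level with CR 1 and below CR 3, so the groups overlapped, with 3 of 5 CR libraries under the lowest AL library (log2 change −0.49 ± 0.19, adjusted p = 0.395). *C1qc*, the C chain, ran from 422 to 844 in AL and from 263 to 595 in CR (−0.46 ± 0.28, adjusted p = 0.649), and 2 of its 5 CR libraries lay below the lowest AL library.

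The chains of C1q are assembled in equal numbers, and the ratio of their transcripts within a library does not depend on scaling. On the log2 scale of reads + 1, the ratio of *C1qa* to *C1qb* in the conjunctiva was 1.45 ± 0.14 (SD, n = 4) in AL and 1.30 ± 0.25 (n = 5) in CR (exact two-sided permutation p = 0.349). The ratio of *C1qa* to *C1qc* was 0.74 ± 0.42 and 0.56 ± 0.39 (exact p = 0.540), and that of *C1qb* to *C1qc* was −0.71 ± 0.30 and −0.74 ± 0.39 (exact p = 0.905). Over the 6 ratios compared in both tissues, the smallest adjusted p was 0.381 (exact permutation), so no shift in the proportion of the chains was detectable.

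**Figure D1:**
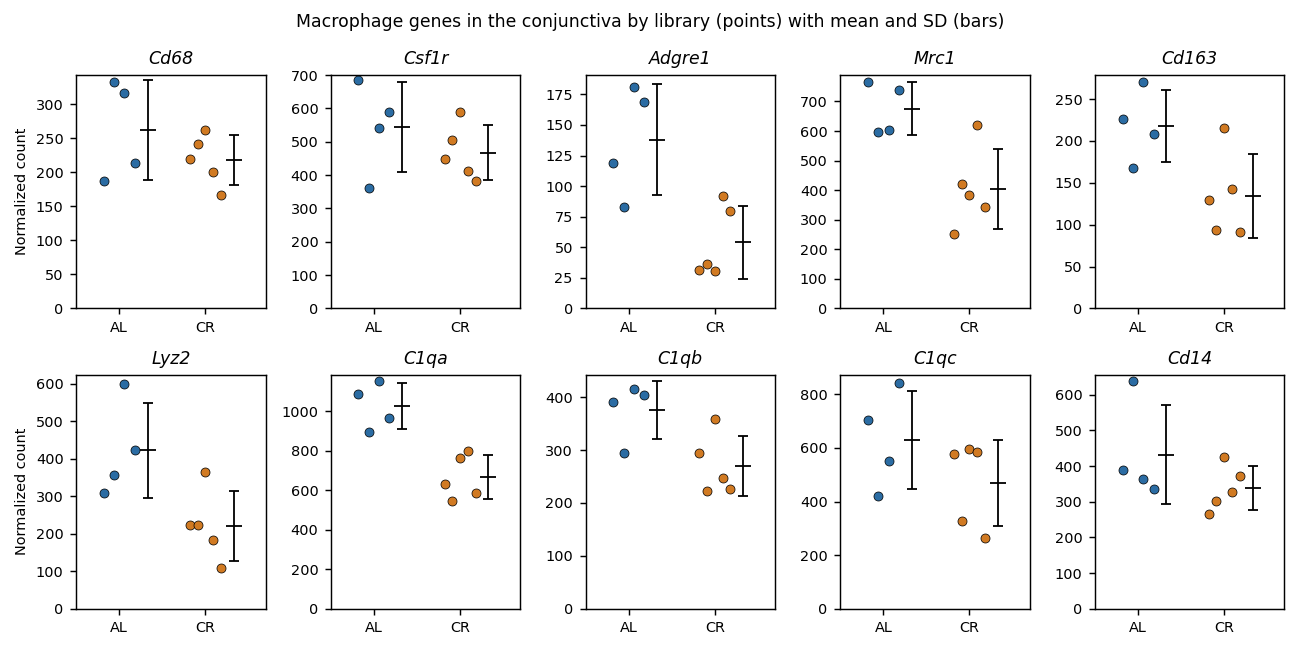
Normalized counts of the 10 macrophage genes in the 9 conjunctiva libraries, with AL in blue and CR in orange, 1 point per library, and the mean with its SD as a bar at the right of each group. *C1qa* is the gene whose CR points, 544 to 800.2, all lie below its AL points, 893 to 1154, while the points of *Csf1r* and *C1qc* overlap widely.

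Among the surface receptors, *Mrc1*, the mannose receptor CD206, measured 765, 596, 604 and 739 in AL 1, 3, 4 and 5, and 250.3, 421, 384, 619 and 345 in CR 1 to CR 5. All CR libraries but CR 4 were below the lowest AL library. The mean went from 676 ± 88.6 (SD, n = 4) to 404 ± 136 (n = 5), a log2 change of −0.79 ± 0.21 (adjusted p = 0.152). *Cd163*, the scavenger receptor for haemoglobin bound to haptoglobin, measured 226, 167, 270.03 and 208 in AL and 129.5, 94.2, 215, 142 and 90.9 in CR. Its CR 3 library sat inside the AL range and the other 4 CR libraries under it (log2 change −0.74 ± 0.26, adjusted p = 0.329).

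*Adgre1* encodes F4/80, an adhesion receptor used to mark mouse macrophages. It measured 119, 83.0, 181 and 169 in AL and 31.2, 36.2, 30.9, 92.2 and 79.8 in CR. The 3 lowest CR libraries were close together, at 30.9 to 36.2, and CR 4 alone exceeded the lowest AL library. Its fitted difference was the largest of the 10 genes, −1.43 ± 0.39 on the log2 scale (adjusted p = 0.155).

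*Lyz2*, the lysozyme of macrophages and neutrophils, measured 308, 358, 599 and 423 in AL and 222, 225, 364, 182 and 107 in CR. Only CR 3 reached the AL range, and the log2 change was −0.997 ± 0.30 (adjusted p = 0.247). *Lyz1*, with which it shares sequence, measured 87.6 ± 25.8 (SD, n = 4) in AL and 55.3 ± 35.8 (n = 5) in CR (−0.82 ± 0.42, adjusted p = 0.559). Of the 9 neutrophil markers 5 were tested, none was called, and 3 had a higher and 2 a lower fitted level in CR. The neutrophil gene *Ly6g* had 0 reads in every conjunctiva library.

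The other 3 genes differed least. *Csf1r*, the receptor on which macrophages depend, ran from 362 to 686 in AL and from 381 to 589.9 in CR, and no CR library lay below the lowest AL library (log2 change −0.20, 95% confidence interval −0.61 to 0.21). *Cd68*, a glycoprotein of the lysosomal membrane, ran from 187 to 332 in AL and from 166 to 262 in CR (−0.24, −0.70 to 0.22). *Cd14*, the co-receptor that hands lipopolysaccharide to TLR4, ran from 337 to 637 in AL and from 267 to 425 in CR (−0.32, −0.75 to 0.11). For these 3 the interval held both 0 and a drop of more than 1.5-fold, so neither was settled by these libraries.

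Which genes passed depended on single libraries. Without CR 3, which held the highest CR values of *C1qb*, *Cd163* and *Lyz2* among others, 2 genes were called: *Lyz2* (log2 change −1.20, adjusted p = 0.0366) and *C1qa* (−0.69, adjusted p = 0.0496). The genes called among all genes rose as well without CR 3, from 50 of 13929 to 127 of 13913. Without CR 4, *Mrc1* was called (−0.96, adjusted p = 0.0402), with 44 of 13958 genes called in all. Over all libraries left out in turn, the adjusted p ran from 0.0496 to 0.341 for *C1qa*, from 0.0366 to 0.53 for *Lyz2* and from 0.0402 to 0.402 for *Mrc1*, and none of the 10 genes changed its direction.

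Other genes tied to these roles were counted list by list. Of 20 further macrophage genes, 19 had a lower fitted level in CR, against 52.0% of all genes tested. At an unadjusted p under 0.05, 7 were lower, against 4.87% of all genes tested, and none was called (median log2 change −0.49). One of the 20 was *Ptprc*, which encodes the leukocyte marker CD45, at 321 ± 43.1 (SD, n = 4) in AL and 244 ± 70.4 (n = 5) in CR (−0.43 ± 0.21, adjusted p = 0.540). The growth factors that act through CSF1R did not differ detectably: *Csf1* measured 422 ± 99.2 and 425 ± 108 (log2 change 0.00 ± 0.22), and *Il34* 47.4 ± 14.7 and 42.1 ± 9.37 (−0.14 ± 0.36). *Spi1*, which encodes the myeloid transcription factor PU.1, measured 85.9 ± 30.5 and 47.2 ± 16.5 (−0.86 ± 0.40, adjusted p = 0.513).

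The proteases that C1q engages, and their inhibitor, were lower in CR as well, without passing the test. *C1ra* measured 475 ± 89.3 (SD, n = 4) and 343 ± 156 (n = 5), with a log2 change of −0.56 ± 0.29 (adjusted p = 0.569). *C1s1* measured 709 ± 73.8 and 423 ± 168 (−0.83 ± 0.24, adjusted p = 0.212). *Serping1*, the C1 inhibitor, measured 5438 ± 1069 and 3640.2 ± 1248 (−0.64 ± 0.26, adjusted p = 0.454). All 6 genes of the classical pathway list had a lower fitted level in CR, against 52.0% of all genes tested. At an unadjusted p under 0.05, 5 were lower, against 4.87% of all genes tested, and none was called. The smallest p of the list was that of *C3*, the central component of complement, at 1672 ± 226 and 956 ± 249 (−0.84 ± 0.19, adjusted p = 0.0714). *C2*, which C1s cleaves, measured 206 ± 54.6 and 128 ± 26.6 (−0.68 ± 0.23, adjusted p = 0.316). For *C3* and *C2* every CR library lay below every AL library, which was the case for 1.95% of all genes tested. *C3* and *C2* were named after their values were seen. The partners of *Cd14* showed no such shared direction, since *Tlr4* measured 681 ± 58.9 and 724 ± 174 (0.06 ± 0.17) and *Ly96*, which encodes MD-2, 139.97 ± 9.41 and 103 ± 58.4 (−0.71 ± 0.46). In the whole lipopolysaccharide list, 7 of 11 genes were lower and 4 higher, none called.

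Several further lists, of markers of other cell types and of MHC class II, also had lower fitted levels in CR. Of all genes tested in the conjunctiva, 52.0% had a lower fitted level and 0.359% were called in either direction. All 8 fibroblast markers had a lower fitted level, and *Col1a1* (log2 change −1.37 ± 0.20, adjusted p = 0.0059) and *Col3a1* (−1.57 ± 0.21, adjusted p = 0.0034), both collagen chains, were called. The summed fibroblast markers ran from 40632 to 60884 normalized counts in AL and from 27026 to 52691 in CR. MHC class II serves antigen presentation, which macrophages share, so this list does not mark another cell type. All 7 MHC class II genes were lower, and *Cd74*, the invariant chain, was called (−0.86 ± 0.14, adjusted p = 0.0074). Their sum was 7526 to 11808 in AL and 5078 to 7411 in CR. All 5 tested genes of the 9 dendritic and Langerhans cell markers were lower, with *Cd209a* called (−2.13 ± 0.43, adjusted p = 0.0404), and their sum was 193 to 267 in AL and 57.1 to 175 in CR. Of 6 mast cell genes tested 5 were lower and *Mcpt4*, a mast cell protease, was called (−1.65 ± 0.34, adjusted p = 0.0445), with sums of 1348 to 2593 and 1185 to 1479. The sums of the 10 macrophage genes ran from 4146 to 4995 in AL and from 2618 to 3986 in CR. How far other cell types take part in the macrophage values was not tested. The 12 lysosomal genes found in most cells were split evenly, 6 lower and 6 higher, with a median log2 change of 0.00.

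In the cornea the same genes were scarce. Only 6 of the 10 passed the filter, and the highest count in any library was 219 reads, of *Cd68*. One change was called, in *C1qa*, which was 1 of 6 genes tested against 1.22% of the 12278 genes tested in the cornea. It was also the only one of the 6 that was lower at an unadjusted p under 0.05, against 9.55% of all genes, and the only one whose diets did not overlap, against 1.89% of all genes with every CR library below every AL library. The fitted level of all 6 was lower in CR, against 53.1% of all genes tested (median −0.51, against −0.03 for all genes tested). The intervals of the other 5, however, held 0.

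*C1qa* measured 49.5, 63.4, 80.8, 69.9 and 42.2 normalized counts in AL 1 to AL 5, and 17.5, 26.4, 15.9, 31.7 and 11.1 in CR 1, 2, 3, 4 and 7. These are 41 to 79 reads in AL and 12 to 31 in CR. The mean fell from 61.1 ± 15.5 (SD, n = 5) to 20.5 ± 8.32 (n = 5), or by 1.58 ± 0.39 on the log2 scale (± SE; limma, adjusted p = 0.0467). The call rested on each of 7 libraries: the adjusted p was 0.103 without AL 1, 0.126 without AL 2, 0.138 without AL 3, 0.0831 without AL 5, 0.0732 without CR 2, 0.118 without CR 3 and 0.0598 without CR 7. The change stayed between −1.75 and −1.40 over all libraries left out in turn, with adjusted p from 0.0335 to 0.138. A fit that also held each library's share of genes at 0 gave −1.47 (adjusted p = 0.193), and the range over the 9 processing alternatives that could test it was 0.0223 to 0.193.

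The other C1q chains did not follow *C1qa* in the cornea. *C1qb* measured 23.1, 15.3, 38.2, 22.1 and 20.6 in AL and 11.0, 27.3, 30.3, 9.20 and 29.7 in CR (log2 change −0.24, 95% confidence interval −1.32 to 0.84). *C1qc* measured 17.6, 15.3, 22.9, 29.2 and 18.5 in AL and 17.5, 1.88, 15.9, 27.6 and 50.2 in CR (−0.34, −1.74 to 1.06). For *C1qb*, 2 CR libraries lay under the AL range and the other 3 inside it, and for *C1qc* 1 lay under and 1 above it. The counts behind both genes were 2 to 54 reads. The log2 ratio of *C1qa* to *C1qb* was 1.34 ± 0.43 (SD, n = 5) in AL and 0.00 ± 1.21 (n = 5) in CR, which did not pass the test (exact two-sided permutation p = 0.0635, adjusted over the 6 ratios 0.381). The difference between *C1qa* and its partner chains was therefore not settled at this depth.

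**Figure D2:**
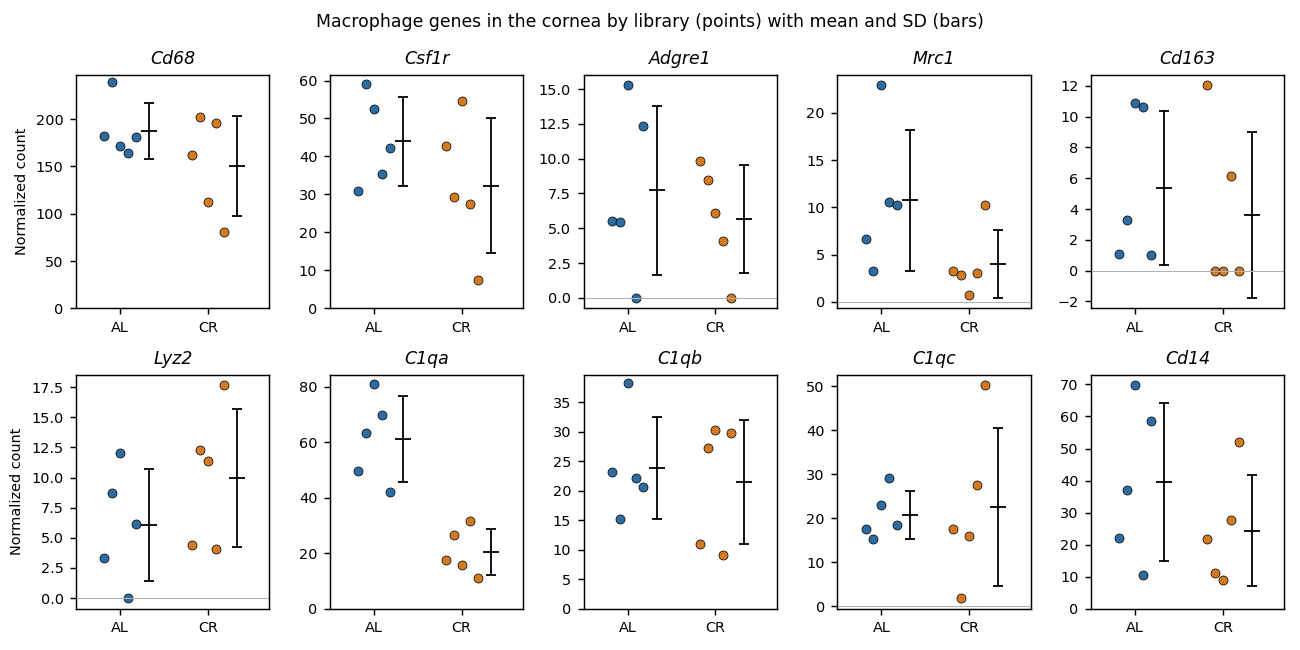
Normalized counts of the 10 macrophage genes in the 10 cornea libraries, drawn as for the conjunctiva (AL blue, CR orange, 1 point per library, mean and SD as bars). *C1qa* is the gene with separate groups, 42.2 to 80.8 in AL and 11.1 to 31.7 in CR, and *Adgre1*, *Mrc1*, *Cd163* and *Lyz2* lie at or below 22.9 in every library.

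*Cd68* measured 183, 239, 171, 164 and 181 in AL and 162, 203, 112, 196 and 80.8 in CR in the cornea (log2 change −0.38, 95% confidence interval −0.88 to 0.11). *Csf1r* ran from 30.8 to 59.0 in AL and from 7.43 to 54.5 in CR (−0.64, −1.61 to 0.34). *Cd14* ran from 10.6 to 69.9 and from 9.09 to 52.0 (−0.66, −1.86 to 0.54). CR 7 held the lowest *Cd68*, *Csf1r* and *C1qa* of all cornea libraries and the highest *C1qc*. With the mean of each diet removed, *Cd68* correlated at 0.69 with the mean of the lysosomal genes. Its r was −0.36 with the mean of the other tested macrophage genes. By gene, it was 0.71 with *C1qa*, 0.54 with *Csf1r*, −0.20 with *Cd14*, −0.60 with *C1qb* and −0.64 with *C1qc*. How far *Cd68* marks macrophages in these cornea samples was not tested.

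The 4 genes under the filter had between 0 and 21 reads in a library. *Mrc1* averaged 10.7 ± 7.44 (SD, n = 5) in AL and 4.03 ± 3.60 (n = 5) in CR, *Adgre1* 7.72 ± 6.09 and 5.70 ± 3.88, and *Cd163* 5.39 ± 4.99 and 3.64 ± 5.40 with 3 of 5 CR libraries at 0 reads. *Lyz2* was the exception in direction, at 6.05 ± 4.66 in AL and 9.95 ± 5.74 in CR. No difference in these 4 was detectable at this depth.

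Several leukocyte markers were sparse in the cornea too. *Ptprc* measured 27.7 ± 14.1 (SD, n = 5) in AL and 11.3 ± 14.9 (n = 5) in CR (log2 change −1.92 ± 0.86, adjusted p = 0.250). The 10 T and B cell markers summed to at most 57.2 in any library and none passed the filter, with *Cd79a* at 0 reads in every library, and the 9 dendritic and Langerhans cell markers summed to 13.3 to 81.9 in AL and 2.83 to 24.1 in CR, with *Zbtb46* at 0 reads throughout. The 7 MHC class II genes summed to 489 to 707 in AL and 257 to 712 in CR, the 6 tested were all lower in CR, and none was called. Fibroblast markers summed to 1096 to 2066 in AL and 677 to 2462 in CR, with 3 of 7 tested genes lower. Of the further macrophage list, which includes *Ptprc*, 10 of 20 genes were tested, 5 lower and 5 higher, none called. The median log2 change of those tested was 0.01, and that of *Ptprc* was the lowest. Not every gene of this list was sparse. *Itgam* averaged 896 normalized counts in AL and 1074 in CR (log2 change 0.17 ± 0.27), and *Ctss* 269 and 289 (0.06 ± 0.19). *Itgam* and *Ctss* were named here after their values were seen. *Spi1* measured 22.3 ± 11.6 and 23.2 ± 13.0 (0.02 ± 0.55), *Csf1* 73.3 ± 46.7 and 54.1 ± 21.4 (−0.32 ± 0.39), *Il34* 18.8 ± 4.27 and 9.17 ± 7.04 (−1.29 ± 0.72), *Tlr4* 407 ± 42.9 and 432 ± 61.0 (0.08 ± 0.14) and *Ly96* 68.0 ± 18.4 and 59.8 ± 29.6 (−0.27 ± 0.34).

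Among the complement partners in the cornea, *C1ra* measured 30.4 ± 9.69 (SD, n = 5) in AL and 10.9 ± 10.03 (n = 5) in CR, a log2 change of −2.05 ± 0.80 (adjusted p = 0.194). *Serping1* measured 160 ± 78.5 and 139 ± 55.3 (−0.19 ± 0.33). *C1s1*, at 4.61 ± 3.34 and 8.10 ± 7.38, and *Lyz1*, at 0.220 ± 0.492 and 2.41 ± 5.39, were under the filter. In the lacrimal list *Obp1b*, an odorant-binding protein, was called lower (log2 change −6.49 ± 1.44, adjusted p = 0.0378), with between 1.77 and 4826 normalized counts in AL and 0 reads in every CR library. Without cornea AL 1, where the lacrimal transcripts were highest, the log2 change of *C1qa* was −1.65 (adjusted p = 0.103, against 0.0335 to 0.138 over all libraries left out).

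**Figure D3:**
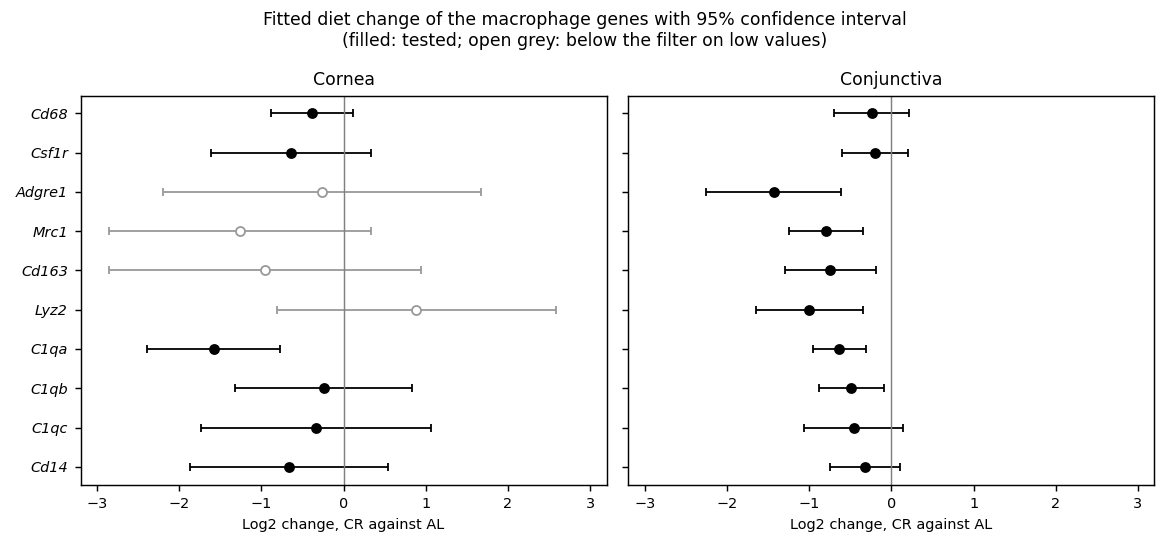
Fitted log2 change of each macrophage gene, CR against AL, with its 95% confidence interval, in the cornea (left) and the conjunctiva (right). Filled points are genes tested and open grey points genes under the filter; every filled point lies left of 0, and in the cornea the interval that clears 0 is that of *C1qa*, −2.39 to −0.77.

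The 2 tissues were compared by the difference of their diet changes, conjunctiva minus cornea. The errors were combined as if the tissues were independent, though 8 titles occur in both and may be from the same mice. No macrophage gene passed, in a test (limma estimates, Satterthwaite degrees of freedom) where 0.0168% of 11929 genes did, and 1 of the 6 had an unadjusted p under 0.05. *C1qa* had the largest difference of the 6 genes tested, 0.95 ± 0.42 on the log2 scale, with the smaller change in the conjunctiva (95% confidence interval 0.09 to 1.81, adjusted p = 0.642). The intervals of the other 5 spanned 0, from −0.51 to 0.80 for *Cd68*, which was the narrowest, to −1.61 to 1.38 for *C1qc*. The diet change of these genes was thus not shown to differ between tissues.

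The tissues did differ in the proportions of the other genes to *Cd68*. Within a library, the ratio of a gene to *Cd68* does not depend on the size factor, and the length of the pair of genes is the same in both tissues. For all 9 other genes the ratio to *Cd68* was higher in every conjunctiva library than in every cornea library. All 9 ratios share *Cd68* as their denominator, so they are not 9 independent results. How many of all genes have such a ratio to *Cd68* was not counted. In the cornea *Adgre1*, *Mrc1*, *Cd163* and *Lyz2* had at most 21 reads in a library. The log2 ratio of *C1qa* to *Cd68*, from reads + 1, was −3.13 to −1.07 for the cornea libraries and 1.17 to 2.54 for the conjunctiva libraries. That of *Csf1r* ran from −3.29 to −1.03 and from 0.13 to 1.87. *Mrc1* ran from −6.22 to −2.84 and from 0.19 to 2.03, and *Cd14* from −4.05 to −0.63 and from 0.20 to 1.16. This is a description of 10 and 9 libraries, some of which may share mice, and was not tested.

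**Figure D4:**
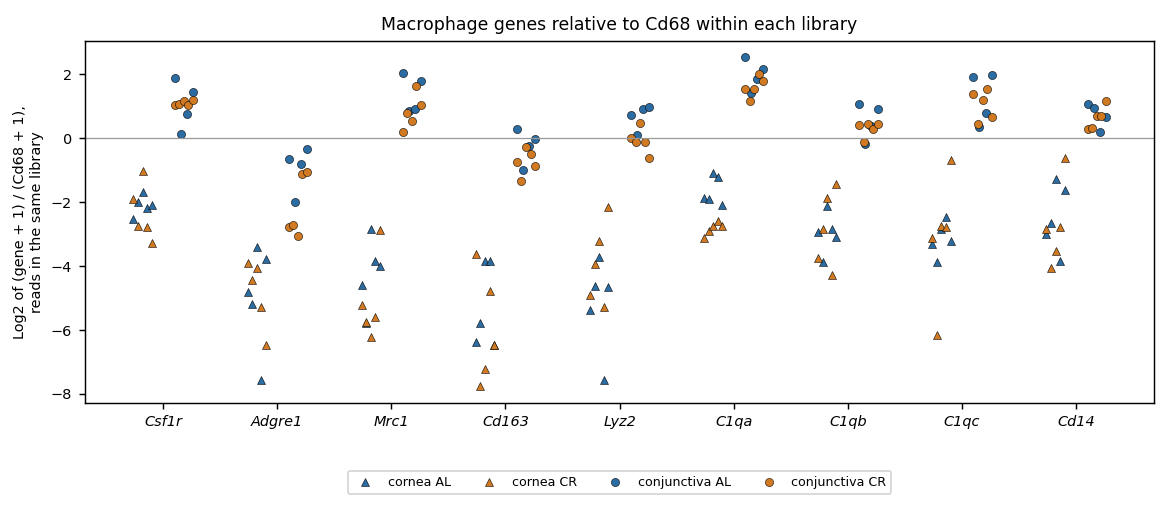
Log2 ratio of each macrophage gene to *Cd68* in the same library, from reads + 1, with cornea libraries as triangles, conjunctiva libraries as circles, AL in blue and CR in orange. Every circle lies above every triangle of the same gene, and the medians of *C1qa* are −2.33 (cornea) and 1.81 (conjunctiva).

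Some of the genes varied together in the conjunctiva. After the mean of each diet was removed, the 45 pairs of the 10 genes had a median Pearson r of 0.18 across 9 libraries (range −0.49 to 0.89), with 13 pairs above 0.5. *C1qb* and *Cd163* were the closest pair (0.89), followed by *C1qa* and *Cd163* (0.86). The 3 C1q genes correlated with each other at 0.64 to 0.75. *Cd68*, *Adgre1*, *Mrc1* and *Cd14* stood outside this group: *Cd68* ran with *Lyz2* (0.70) and *Adgre1* with *Mrc1* (0.52). In the cornea, 15 pairs of the 6 tested genes had a median r of −0.22 across 10 libraries (range −0.64 to 0.71), and the C1q genes correlated with each other at −0.35 to −0.14. The same 15 pairs had a median of 0.06 in the conjunctiva (range −0.46 to 0.75), with 5 above 0.5 against 2 in the cornea, where some libraries held as few as 2 reads of a gene, and the difference was not tested. Correlations are given as descriptions, since all genes of a library share its depth and its mix of cells.

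**Figure D5:**
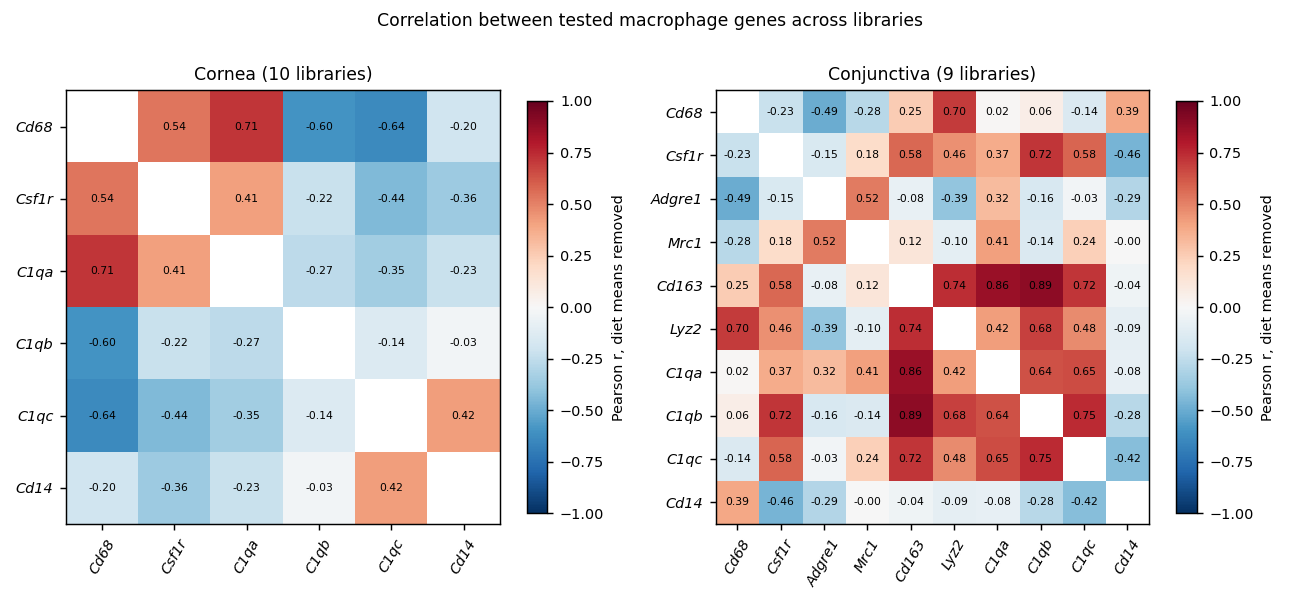
Pearson correlation between the tested macrophage genes across libraries after removal of the diet means, for 6 genes in 10 cornea libraries (left) and 10 genes in 9 conjunctiva libraries (right), coloured from −1 (blue) to 1 (red). *Csf1r*, *Cd163*, *Lyz2* and the 3 C1q genes form a red block in the conjunctiva, and no such block is seen in the cornea.

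Within diets, several of the genes followed the fibroblast markers of the conjunctiva. The correlation with the mean of the fibroblast list was above 0.5 for 6 of the 10 genes, with 0.84 for *C1qa*, 0.82 for *C1qc*, 0.78 for *Cd163*, 0.67 for *C1qb*, 0.63 for *Csf1r* and 0.62 for *Mrc1*. It was −0.21 for *Cd68* and −0.27 for *Cd14*. The relation was not particular to fibroblast markers. With the mean of the lysosomal list, r was above 0.5 for *Cd163* (0.72), *C1qb* (0.60) and *C1qa* (0.55), and not for the other genes. The share of all genes that reach such an r was not counted. *Cd68* had its strongest relation with the share of genes at 0 (−0.78), as had *Lyz2* (−0.78), and *Cd163* stood at −0.63 with it. The genes most like the mean of the 10 in the conjunctiva were *Meg3* (0.985), *Bex1* (0.974), *Fgfr1* (0.966), *Lamb1* (0.960) and *Mgp* (0.960), over 9 libraries, and none of these is a macrophage marker. In the cornea they were *Slc35b1* (0.945), *Retnla* (0.923), *Clec3b* (0.887), *Ccpg1* (0.886) and *Notch2* (0.884), over 10 libraries.

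The promoter windows of the closest pair, *C1qb* and *Cd163*, and of *C1qc*, the neighbour of *C1qb*, are shown because these genes varied together in the conjunctiva. They run from 250 bases before to 50 after the start used by that table, which for *C1qc* and *Cd163* lies inside the gene limits given above, and were taken from RefSeq (GRCm38.p6): chr4:136886151-136886450 for *C1qb* and chr4:136892865-136893164 for *C1qc*, both on the minus strand, and chr6:124304401-124304700 on the plus strand for *Cd163*. Capitals mark the core bound by PU.1, GAGGAA, on either strand.
C1qb: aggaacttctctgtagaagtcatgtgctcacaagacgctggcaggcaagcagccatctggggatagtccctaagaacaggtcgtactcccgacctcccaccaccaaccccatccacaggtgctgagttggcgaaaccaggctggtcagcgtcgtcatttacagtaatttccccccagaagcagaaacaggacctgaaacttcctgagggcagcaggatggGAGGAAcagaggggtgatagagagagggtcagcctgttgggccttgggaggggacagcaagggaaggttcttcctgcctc
C1qc: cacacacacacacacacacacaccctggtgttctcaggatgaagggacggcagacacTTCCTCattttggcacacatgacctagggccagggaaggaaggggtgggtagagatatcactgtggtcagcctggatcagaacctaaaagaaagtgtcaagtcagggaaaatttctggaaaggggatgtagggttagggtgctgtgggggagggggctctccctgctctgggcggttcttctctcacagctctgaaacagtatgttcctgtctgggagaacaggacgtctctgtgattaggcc
Cd163: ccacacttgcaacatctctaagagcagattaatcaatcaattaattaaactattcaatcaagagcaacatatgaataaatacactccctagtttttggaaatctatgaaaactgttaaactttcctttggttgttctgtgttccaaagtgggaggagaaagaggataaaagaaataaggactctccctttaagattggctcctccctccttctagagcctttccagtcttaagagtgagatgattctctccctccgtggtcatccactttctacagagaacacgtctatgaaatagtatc

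The window of *C1qb* holds 1 core, at −30 from the start, and that of *C1qc* holds 1, at −193 and on the other strand, while these letters are not in the window of *Cd163*. Of the 10 genes, 6 had a window in the table, and 4 of those 6 held at least 1 core (*Cd68* and *Mrc1* besides *C1qb* and *C1qc*, but not *Lyz2*), against 28.3% of 32851 promoter windows of the same length. The MAF half-site TGCTGAC was in 0 of the 6 windows and in 4.67% of all. The motifs do not overlap in letters, and a match describes the sequence only.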

How the data were processed

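RNA sequencing of mouse cornea and conjunctiva was analysed from 19 libraries. By the study's methods the authors trimmed single reads with cutadapt, aligned them with STAR, counted with HTSeq and scaled with DESeq2 on the ROSALIND platform, with no versions stated. The methods name build mm10 and the submitters' processing notes GRCm39. The labels name a stranded mRNA kit and the methods an oligo(dT)-primed kit, so the library type and use of strand were not settled, and levels were not compared between genes. The deposited values are log2 of the count over the size factor, plus 1. They were turned back into whole reads, and 100% of values came out whole (within 0.05 of a read). Of 24557 features per table, 5 repeated a symbol and were left out, 483 had no gene identifier, and 0 columns were unmapped.

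Diets were compared with limma (version 3.58.1, statmod 1.5.0, R 4.3.3; trend and robust moderation) on log2(normalized count + 1) for genes whose mean reached 10 normalized counts, with Benjamini-Hochberg adjustment over all genes tested. This scale understates the change of low genes. Tissues were compared gene by gene from both log2 changes and their standard errors (Satterthwaite degrees of freedom). The study's count models were not run on these log2 values, and limma voom on the recovered reads stood in as an alternative. Exact permutation tests (two-sided) were used for single values. The fit was tested on simulated data.

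The 10 genes and the 18 other lists were chosen with earlier results of these data known. Named were all 10 genes, list genes past an adjusted p of 0.05 in a tissue, 10 partners of the macrophage genes, and the 5 genes per tissue most like the mean of the 10; *Obp1b* and the markers that check the tissues came from the lists. A gene's p-values measure the spread between mice, as far as each library is 1 mouse. Alternatives were another pseudocount (0.5 or 10), another filter (none, or a mean of 50), quantile and upper-quartile scaling, array weights, a covariate, a replicate block, limma voom on the recovered reads, and each library left out. The replicate numbers did not pair AL with CR libraries, which are different mice: correlations of same-numbered libraries were −0.30 to 0.29 for the cornea, with 1 of 4 above 0.1, and −0.06 to 0.05 for the conjunctiva.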

Additional observations from a re-analysis of the deposited data

Results flagged for a closer look

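Each of 40 groups (10 genes, 2 tissues, 2 diets) was checked for a library far from the others of its group, and 2 were found, as many as the 2 that chance gives at about 1 in 20. *Cd68* was 239.2 normalized counts in cornea AL 2, while the other 4 AL libraries lay between 164.5 and 182.6. *Mrc1* was 10.22 in cornea CR 7, while the other 4 CR libraries lay between 0.758 and 3.29, which is 1 to 3 reads against 11.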

How the results depend on the processing

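In the conjunctiva, the direction of all 10 genes held under 10 processing alternatives and 9 libraries left out in turn. The number called, 0, became 3 with array weights (*Adgre1*, *Mrc1* and *C1qa*) and 1 with each library's share of genes at 0 in the fit (*Adgre1*), and ran from 0 to 2 with a library left out. In the cornea, the number called, 1, was 0 with no filter, a mean of 50 as the filter (which leaves *C1qa* out), quantile normalization, that covariate, the replicate block and limma voom, and ran from 0 to 1 with a library left out. *C1qc* reversed in the cornea with quantile normalization (0.0185). Left out in turn, libraries moved it from −0.74 to 0.30 and *C1qb* from −0.40 to 0.0035. The difference between tissues, taken per title shared by both, reversed for *Cd68* (−0.0568), *Csf1r* (−0.0446), *C1qb* (0.10) and *C1qc* (0.57), none past the threshold. The cause of these shifts was not tested.

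Under the replicate block, *C1qa* in the cornea changed by −1.52 (adjusted p = 0.185), and the genes called among all genes were 46 (150 without the block), against 10 (50) for the conjunctiva. The block changed no other call among the 10 genes. Over all genes, leaving out a library moved the count called between 53 and 536 (cornea) and between 26 and 127 (conjunctiva), array weights raised it to 705 and 149, and the covariate gave 62 in each. Low counts of these genes limit the cornea, where 4 of the 10 had 0 to 21 reads in a library at library totals like those of the conjunctiva.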

Other observations

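A few genes of the other lists are given beside the 10. *Ctss*, a lysosomal protease of antigen presenting cells, measured 1067 ± 109 (SD, n = 4) in AL and 820 ± 165 (n = 5) in CR conjunctiva, a log2 change of −0.40 ± 0.16 (limma, adjusted p = 0.422). *Laptm5*, a lysosomal membrane protein of blood cells, measured 565 ± 102 and 352 ± 119 (−0.73 ± 0.22, adjusted p = 0.229). *Cx3cr1*, the fractalkine receptor, measured 101 ± 18.8 and 95.5 ± 28.8 (−0.13 ± 0.30, adjusted p = 0.924). *Cd207*, the Langerhans cell lectin, had at most 5.50 normalized counts in any cornea library and 1.82 in any conjunctiva library. *Lbp*, whose protein carries lipopolysaccharide to CD14, measured 156 ± 36.9 and 96.7 ± 31.8 in the conjunctiva (−0.74 ± 0.31, adjusted p = 0.461). These 5 genes were chosen after their values were seen.

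In the remaining lists no gene was called. Of all genes tested, 52.0% were lower in the CR conjunctiva and 53.1% in the CR cornea. Scavenger and endocytic receptors had 10 genes lower and 2 higher in the CR conjunctiva (4 and 2 in the cornea), Fc receptors and their signalling partners 6 and 1 (2 and 0), and myeloid transcription factors 5 and 2 (1 and 6). Endothelial markers had 6 lower and 1 higher in the conjunctiva, T and B cell markers 2 and 1, corneal epithelial markers 2 and 3 and conjunctival epithelial markers 2 and 2. In the cornea the lysosomal list had 8 lower and 4 higher, the lipopolysaccharide list 4 and 5, and the neutrophil list 3 and 0.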
